A study of Mus musculus with 18 samples.

Results

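A set of 10 genes for paired activating and inhibitory receptors of myeloid cells was followed in splenic neutrophils of untreated female NZBWF1/J mice, in which a lupus-like disease develops. The genes were chosen by symbol (Trem1, Trem3, Sirpa, Siglece, Pilra, Pilrb1, Cd300a, Cd300lf, Cd300ld and Cd244), and all 10 were among the 17941 symbols of the count table and among the 10104 with enough counts to be tested. Cells were collected at 14, 20 and 26 weeks of age, which the study describes as stages of disease, with 6 RNA sequencing libraries at each age. The sorting gate took single DAPI-negative cells that were Ly6b+, CD11b+, Ly6G+ and intermediate for Ly6C. The libraries are labelled as biological replicates, and the labels do not say whether each came from 1 mouse or from pooled mice, so p-values measure the spread between these samples. All animals shared strain, sex and lack of treatment, and no healthy strain was analysed here, so age and stage of disease cannot be told apart. In bulk libraries, fewer cells of a type and less RNA per cell cannot be told apart either.

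Paired receptors are families of closely related surface proteins in which some members dampen and others trigger a cell. Inhibitory members carry tyrosine-based inhibitory motifs in long cytoplasmic tails and recruit the phosphatases SHP-1, SHP-2 and SHIP-1 (genes Ptpn6, Ptpn11 and Inpp5d). Activating members have short tails and signal through the adaptors DAP12 (Tyrobp), DAP10 (Hcst) or the Fc receptor gamma chain (Fcer1g) to the kinase Syk. Siglec-E (Siglece), which binds sialic acids, SIRP alpha (Sirpa), the receptor for the "don't eat me" protein CD47, PILR alpha (Pilra), CD300a (Cd300a) and CLM-1 (Cd300lf) belong to the inhibitory side. PILR beta (Pilrb1), CLM-5 (Cd300ld), TREM-1 (Trem1) and, in mice, TREM-3 (Trem3) belong to the activating side. The 2B4 receptor (Cd244) of the SLAM family binds CD48 and can do either, depending on the adaptors of the cell. In neutrophils these receptors set thresholds for the oxidative burst, degranulation and cytokine release.

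Libraries held 5546624 to 17256379 counts. Levels are given in CPM, counts scaled to 1 common library size with a correction for composition, and changes as fitted log2 fold changes of the older over the younger age ± SE. A gene was called at an edgeR adjusted p under 0.05. The 14 neutrophil markers summed to 151300 to 216900 CPM at 14 weeks, 53130 to 129000 CPM at 20 weeks and 166300 to 333700 CPM at 26 weeks, so markers of the sorted cell type were abundant at every age. Replicate 3 of 20 weeks stood apart from the other libraries of its age, with a median correlation of 0.743 against 0.875 to 0.914 for the others. Without it, the number of receptor genes called was unchanged at 3 for 20 against 14 weeks and at 2 for 26 against 14 weeks, and was 7 in place of 8 for 26 against 20 weeks.

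Several of the 10 genes are neighbours in the genome (GRCm38, GENCODE M21 gene models, all protein coding). Trem1 (chr17:48232768-48246924) and Trem3 (chr17:48247777-48258841) lie 852 bases apart on the same strand. Pilra (chr5:137821952-137836281) and Pilrb1 (chr5:137852147-137858106) lie 15865 bases apart on the minus strand. Cd300a (chr11:114890041-114904654, plus strand), Cd300ld (chr11:114982274-114989922) and Cd300lf (chr11:115116214-115133992), both on the minus strand, share a cluster. Sirpa (chr2:129592835-129632228), Siglece (chr7:43651070-43660161) and Cd244 (chr1:171559193-171609746, annotated there as Cd244a) are single members of the set on their chromosomes. Of all windows of 100 bases, the read length, in transcripts of Pilra, 12% also occurred in transcripts of other genes, 11.3% in Zcwpw1, whose gene overlaps the end of Pilra by 670 bases on the other strand. That share was 3.53% for Pilrb1, 1.38% for Cd300ld, 0.849% for Cd300a, 0.644% for Cd300lf and 0% for the other 5 genes, so counts of near-identical stretches of the PILR and CD300 genes are uncertain over these shares. The Nextera XT kit named in the labels does not mark strand, so reads from the overlap of Pilra and Zcwpw1 cannot be told apart. Zcwpw1 itself had a median of 71.4 CPM at 14 weeks, 65.3 CPM at 20 weeks and 57.2 CPM at 26 weeks.

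RefSeq promoter sequences (GRCm38.p6) were matched for 8 of the 10 genes, all but Trem3 and Sirpa, and the 250 bases before the gene start were searched on both strands for 2 motifs of myeloid transcription factors. The core GAGGAA, which PU.1 binds and which reads TTCCTC on the other strand, was present in 6 of the 8 windows and in 23.1% of 27025 windows of all genes. TTNNGCAA, a core of C/EBP factors that reads TTGCNNAA on the other strand, was present in 4 of the 8 and in 9.55% of all. Of these 4, the matches of Pilra and Pilrb1 lie in nearly identical sequence and are not independent. A match is a description of the letters, not of binding. The windows of Pilra (chr5:137836282-137836528, minus strand) and Pilrb1 (chr5:137858107-137858299, minus strand) are shown because the activating and the inhibitory gene of this pair carry nearly the same sequence: over the full windows of 250 bases, 192 of 196 aligned positions were identical (98%). Those of Cd244 (chr1:171558943-171559192, plus strand), Cd300a (chr11:114889791-114890040, plus strand) and Siglece (chr7:43660162-43660411, minus strand) are shown because these 3 genes were called higher at 20 weeks. All are written 5′ to 3′ with the motif matches in capitals, and bases inside the GENCODE gene (3 for Pilra and 57 for Pilrb1) are left out.
Pilra: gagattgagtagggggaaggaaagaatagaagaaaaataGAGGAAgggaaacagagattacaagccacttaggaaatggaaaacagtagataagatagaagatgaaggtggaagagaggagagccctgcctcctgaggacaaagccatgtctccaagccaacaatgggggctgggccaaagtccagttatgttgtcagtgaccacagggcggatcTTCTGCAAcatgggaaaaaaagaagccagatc
Pilrb1: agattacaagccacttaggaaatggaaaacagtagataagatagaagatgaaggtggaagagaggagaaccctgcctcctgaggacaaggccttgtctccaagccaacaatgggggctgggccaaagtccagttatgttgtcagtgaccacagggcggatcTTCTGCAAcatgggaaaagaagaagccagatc
Cd244: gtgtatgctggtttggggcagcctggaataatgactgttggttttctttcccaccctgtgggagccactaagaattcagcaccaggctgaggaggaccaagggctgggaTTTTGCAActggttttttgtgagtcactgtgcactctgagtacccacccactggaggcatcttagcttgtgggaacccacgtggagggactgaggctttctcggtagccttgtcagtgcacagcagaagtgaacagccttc
Cd300a: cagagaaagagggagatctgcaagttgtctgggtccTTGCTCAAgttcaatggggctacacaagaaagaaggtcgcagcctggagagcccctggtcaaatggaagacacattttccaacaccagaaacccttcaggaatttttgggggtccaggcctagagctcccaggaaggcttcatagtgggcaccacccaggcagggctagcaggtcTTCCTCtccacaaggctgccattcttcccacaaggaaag
Siglece: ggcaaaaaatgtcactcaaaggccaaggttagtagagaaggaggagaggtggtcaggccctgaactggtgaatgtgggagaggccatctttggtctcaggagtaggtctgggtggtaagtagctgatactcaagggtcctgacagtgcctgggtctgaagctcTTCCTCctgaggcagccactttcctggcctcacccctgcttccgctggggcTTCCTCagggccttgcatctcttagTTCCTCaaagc
Pilra had 1 TTNNGCAA and 1 GAGGAA match, and Pilrb1 had 1 TTNNGCAA and 0 GAGGAA matches. Cd244 had 1 TTNNGCAA and 0 GAGGAA matches, Cd300a had 1 of each, and Siglece had 3 GAGGAA matches.

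Scaled to exon length, the 10 genes spanned a wide range of levels. At 14 weeks Trem3 was highest, with 567 ± 32.7 CPM per kb (SD, n = 6), and its range did not overlap that of Siglece (376 ± 43.7), the next in order. Siglece and Pilra (330 ± 31.3) overlapped, and Pilra lay above Sirpa (198 ± 34.2) without overlap. Cd300lf, Trem1 and Cd300a followed, each overlapping the gene before it, and below Cd300a, without overlap, Pilrb1 (44 ± 3.09), Cd300ld (32.4 ± 10.3) and Cd244 (5.98 ± 4.3) were lowest, Cd244 below Cd300ld without overlap. At 20 weeks Siglece ranked first (563 ± 112 CPM per kb), overlapping Trem3 (429 ± 141), and Cd244 (40.8 ± 9.5) overlapped Cd300ld (48.4 ± 18.2). At 26 weeks Trem3 stood above all others (893 ± 267), Pilra (316 ± 65.6) and Siglece (309 ± 70.1) overlapped, and Cd244 (14.1 ± 10.4) was again last. Within the set, the activating Pilrb1 was below the inhibitory Pilra, and Cd300ld below Cd300a and Cd300lf, in the means of every age. This order did not extend to Cd300lb, an activating CD300 gene outside the set. Without scaling to length, Cd300lb averaged 998, 1383 and 534 CPM at 14, 20 and 26 weeks, against 689, 870 and 524 CPM for Cd300lf. Pilrb2, also outside the set, averaged 135, 160 and 160 CPM, against 1020, 1279 and 976 CPM for Pilra.

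**Figure D1:**
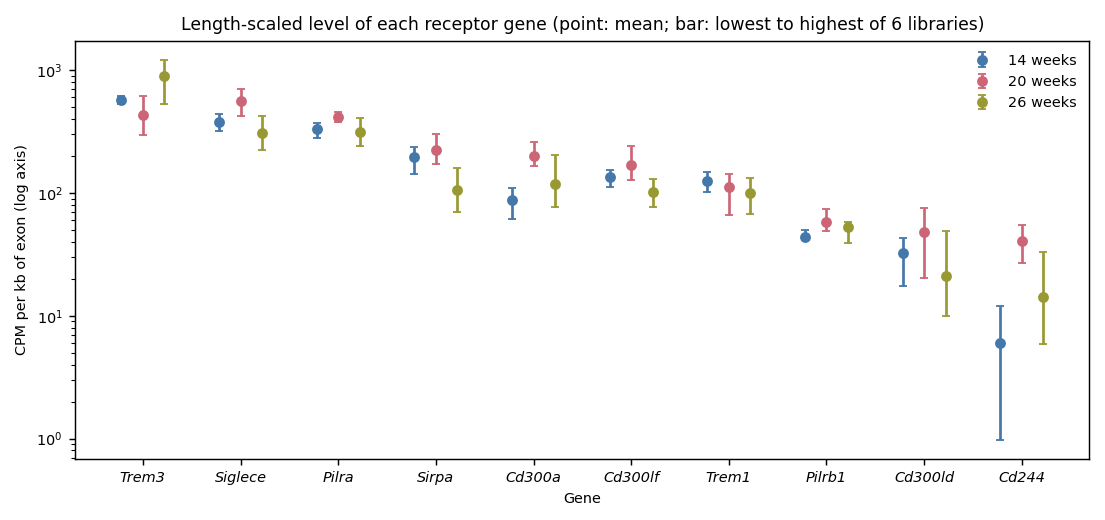
Mean CPM per kb of exon (log axis) of each receptor gene at 14, 20 and 26 weeks, with bars from the lowest to the highest of 6 libraries. Trem3 is highest at 14 and 26 weeks (567 and 893 CPM per kb) and Cd244 lowest at all ages (5.98, 40.8 and 14.1 CPM per kb at 14, 20 and 26 weeks).

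At 20 weeks, against 14 weeks, Cd244, Cd300a and Siglece rose, and none of the 10 genes fell. Cd244 rose most, by 2.77 on the log2 scale, which is 6.81-fold, Cd300a 2.31-fold and Siglece 1.5-fold. These 3 of 10 stand beside 4.93% of all tested genes called higher, 5.27% called lower and 10.2% called in either direction. DESeq2 called 5 higher and 0 lower, and at an unadjusted edgeR p under 0.05 there were also 5 higher and 0 lower. The median log2 change of the 10 genes was 0.36 and that of all tested genes -0.02. In 3 of the genes (Cd244, Cd300a and Pilra) the ranges of the 6 libraries of each age did not overlap, which held for 6.9% of all tested genes.

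Cd244, the receptor for CD48, ran from 130 to 269 CPM at 20 weeks with a median of 201 CPM, against 4.79 to 58.7 CPM with a median of 27.9 CPM at 14 weeks. Every 20-week library was above every 14-week library (log2 fold change 2.77 ± 0.51, adjusted p = 0.00206). Cd300a, an inhibitory receptor for phosphatidylserine, ran from 787 to 1237 CPM (median 890) at 20 weeks, against 290 to 520 CPM (median 422) at 14 weeks, again without overlap (1.21 ± 0.23, adjusted p = 0.00258). Both calls were kept in all 10 alternative settings and in the 18 fits that each left out 1 library. Siglece ran from 776 to 1302 CPM (median 1040) at 20 weeks, against 590 to 804 CPM (median 688) at 14 weeks, with 5 of the 6 older libraries above all younger ones (0.58 ± 0.16, adjusted p = 0.0211). That call was lost without replicate 4 or 6 of 14 weeks or replicate 2 or 4 of 20 weeks (adjusted p up to 0.0547), and with a curve for gene length (log2 fold change 0.34, adjusted p = 0.339).

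The remaining inhibitory genes were not called at 20 weeks. Pilra lay between 1177 and 1413 CPM (median 1266) at 20 weeks, above all 14-week libraries at 858 to 1138 CPM (median 1022), a difference of 0.33 ± 0.13 on the log2 scale with adjusted p = 0.112. It was called by DESeq2, with the stricter filter and when only these 2 ages were fitted (lowest adjusted p = 0.019). Cd300lf (0.34 ± 0.16, adjusted p = 0.231) reached 1099 and 1235 CPM in 2 libraries of 20 weeks and lay between 658 and 786 CPM in the other 4, within the 576 to 788 CPM of 14 weeks. Sirpa differed least among the inhibitory genes (0.16 ± 0.20, adjusted p = 0.703), with 850 to 1473 CPM at 20 weeks against 695 to 1162 CPM at 14 weeks.

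Of the 4 activating genes edgeR called 0 between these ages, DESeq2 called Pilrb1, and at an unadjusted p under 0.05 there was also Pilrb1. Pilrb1 had a median of 107 CPM (95.7 to 145) at 20 weeks and 84.6 CPM (80.4 to 97.5) at 14 weeks, and 5 of the 6 older libraries were above all younger ones (0.39 ± 0.13, adjusted p = 0.0677). It was called higher with RLE or upper-quartile scaling, DESeq2, the stricter filter and the GC curve (adjusted p from 0.00915), and without replicate 4 of 26 weeks (adjusted p = 0.04). Cd300ld ranged widely at 20 weeks, 53.9 to 200 CPM with a median of 131 CPM, against 45.8 to 114 CPM with a median of 93.5 CPM at 14 weeks (0.58 ± 0.36, adjusted p = 0.365). Trem1, the receptor that amplifies inflammatory signals, had medians of 354 CPM at 20 weeks and 373 CPM at 14 weeks (-0.15 ± 0.20, adjusted p = 0.725). Trem3 was lower in 4 of 6 libraries of 20 weeks than in any of 14 weeks, with medians of 381 CPM at 20 weeks and 557 CPM at 14 weeks, but was not called (-0.40 ± 0.21, adjusted p = 0.256). The gene length curve gave it -0.67 and adjusted p = 0.0164.

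**Figure D2:**
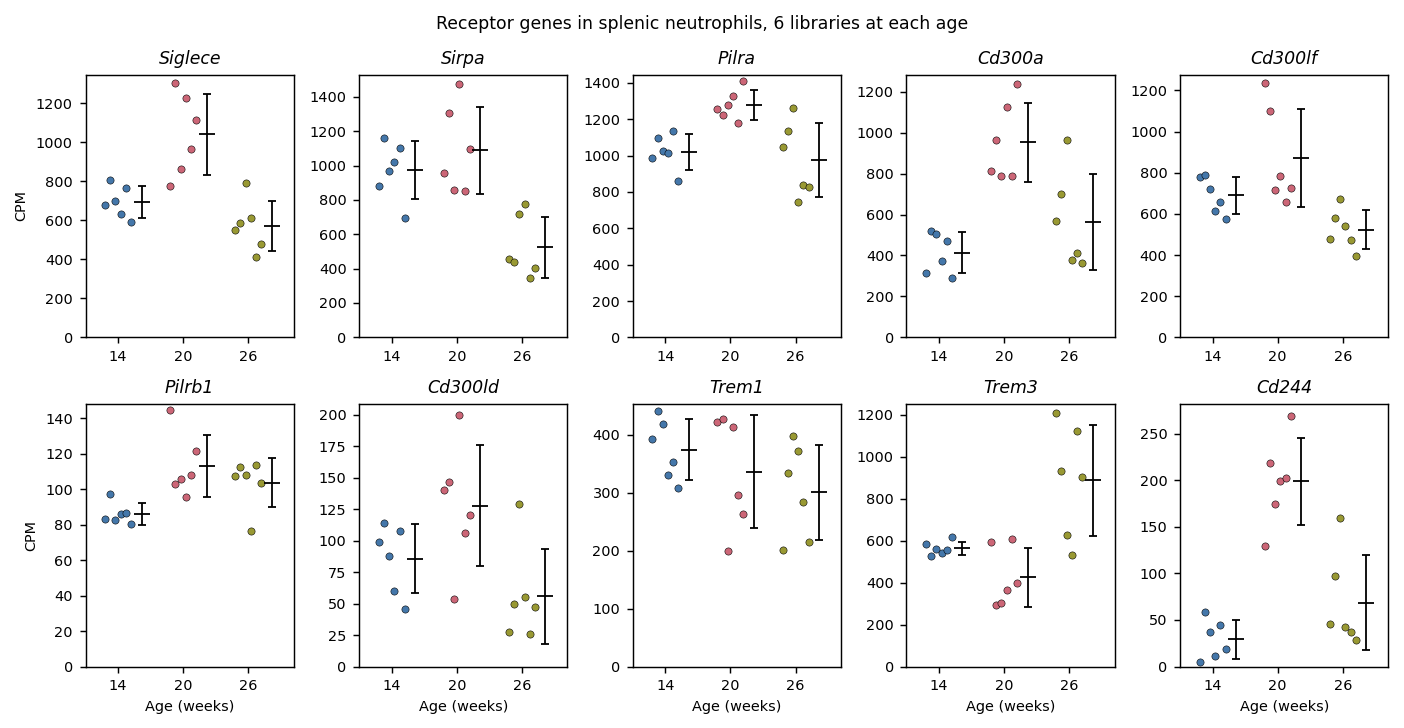
CPM of each receptor gene in every library at 14, 20 and 26 weeks, with the mean and SD of 6 libraries beside the points. Cd244 and Cd300a separate all 20-week libraries from all 14-week libraries, and Trem3 reaches 904 to 1207 CPM in 4 libraries of 26 weeks.

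Markers of several other cell types moved over the same interval. Of 5 tested monocyte and macrophage markers 3 were called higher at 20 than at 14 weeks, Adgre1 (1.73 ± 0.34), Csf1r (1.31 ± 0.33) and Cd68 (1.10 ± 0.22), and 1, Ly6c2, lower (-1.66 ± 0.28). The 12 such genes of the table summed to 856 to 1355 CPM at 20 weeks and 790 to 1132 CPM at 14 weeks, with Mertk at 0 in all libraries of 20 weeks and Cx3cr1, Ccr2, C1qa and C1qb at 0 in all libraries of 14 weeks. Ly6c2, a gene of the Ly6C used in the sorting gate, averaged 169 CPM of this sum at 20 weeks and 533 CPM at 14 weeks. Markers of NK cells, which also carry 2B4, summed to 0 to 15.6 CPM at 20 weeks and 0 to 11.4 CPM at 14 weeks, with Ncr1, Klrk1 and Klrd1 at 0 in all libraries of both ages. B cell markers summed to 244 to 1873 CPM at 20 weeks and 49.5 to 199 CPM at 14 weeks, and plasma cell markers to 350 to 2075 CPM at 20 weeks and 128 to 186 CPM at 14 weeks, with 2 of 5 tested B cell and 3 of 3 tested plasma cell markers called higher. Jchain averaged 368 CPM at 20 weeks and 0.1955 CPM at 14 weeks, Igkc 271 and 2.8 CPM and Xbp1 321 and 154 CPM. Of these 3, limma-voom called 1. Dendritic cell markers summed to 35.4 to 176 CPM at 20 weeks and 0.515 to 34.5 CPM at 14 weeks, without overlap, and Itgax was called higher (3.02 ± 0.71). Eosinophil markers summed to 37.1 to 78.5 CPM at 20 weeks and 9.16 to 24.9 CPM at 14 weeks, also without overlap, and Ccr3 was called higher (2.69 ± 0.75). Ear2 had a negative estimate (-1.43 ± 0.56, edgeR adjusted p = 0.117), and DESeq2 called 2 of the 3 tested higher and 1 lower. Il5ra, Prg2 and Ear6 were at 0 in every library of 20 weeks. Xcr1 was at 0 in every library of 20 weeks, and Clec9a, Siglech and Cd209a in every library of 14 weeks. T cell markers summed to 50 to 102 CPM at 20 weeks and 117 to 154 CPM at 14 weeks, with 0 of 4 called by edgeR, 2 lower at an unadjusted p under 0.05 and 1 lower by DESeq2 and by limma-voom. Cd3d alone averaged 70.4 CPM of this sum at 20 weeks and 129 CPM at 14 weeks. Cd3e, Cd8a and Cd28 were at 0 in all libraries of 20 weeks. The sums of basophil and mast cell markers overlapped, but single genes went both ways. Kit, the only tested gene of that list, averaged 5.16 CPM at 20 weeks and 22.7 CPM at 14 weeks and was not called by edgeR. Over the 6 libraries, Fcer1a had 292 counts at 20 weeks and 9 at 14 weeks, Cpa3 175 and 24 and Gata2 122 and 2. Ms4a2, Mcpt8 and Prss34 had 99, 79 and 50 counts at 20 weeks and 0 at 14 weeks. The markers of other cell types given with a change were named after their values were seen. Of the 14 neutrophil markers 11 were lower and 1, Csf3r, higher at 20 than at 14 weeks. The part of these cell types and markers in the changes of the receptor genes was not tested.

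Between 20 and 26 weeks most of the receptor genes were lower. At 26 weeks, against 20 weeks, 7 of the 10 genes fell (Siglece, Sirpa, Pilra, Cd300a, Cd300lf, Cd300ld and Cd244), 1 rose (Trem3), and Pilrb1 and Trem1 were not called. All 5 inhibitory genes of the set were among those that fell, with 1 of its 4 activating genes. Of the 5, the calls of Cd300a and Pilra were each lost in some fits without 1 library. Activating genes of the same families outside the set fell too, Cd300lb (-1.37), Sirpb1a (-1.31), Sirpb1b (-1.07) and Sirpb1c (-1.15). Treml2, Treml4 and Pilrb2 were not called. Over all tested genes 7.98% were called lower, 8.03% higher and 16.0% in either direction. The median log2 change was -0.74 for the 10 genes and 0.05 for all tested genes. Leaving out 1 library gave 4 to 8 called genes, 4 without replicate 4 of 20 weeks or replicate 1, 5 or 6 of 26 weeks and 5 without replicate 2 or 6 of 20 weeks or replicate 4 of 26 weeks, and fitting only the 2 ages gave 5. This comparison shares the 20-week libraries with the one above.

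Sirpa fell most among the inhibitory genes. It ran from 344 to 779 CPM (median 447) at 26 weeks, against 850 to 1473 CPM (median 1026) at 20 weeks, with every 26-week library below every 20-week library (-1.06 ± 0.20, adjusted p = 0.00167). Only Sirpa of the 10 genes showed no overlap, which held for 5.96% of all tested genes. Siglece ran from 411 to 788 CPM (median 568) at 26 weeks and 776 to 1302 CPM (median 1040) at 20 weeks, with 5 of 6 older libraries below all younger ones (-0.87 ± 0.16, adjusted p = 0.0011). Cd300lf, an inhibitory receptor for phospholipids, ran from 394 to 672 CPM (median 510) at 26 weeks and 658 to 1235 CPM (median 757) at 20 weeks, with 5 of 6 older libraries below all younger ones (-0.73 ± 0.17, adjusted p = 0.00481). The calls of Sirpa, Siglece, Cd300lf and Trem3 were kept in all 10 alternative settings and in each fit that left out 1 library.

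The other 4 falls were less firm. Cd300a ran from 363 to 965 CPM (median 491) at 26 weeks and 787 to 1237 CPM (median 890) at 20 weeks, with overlap (-0.76 ± 0.23, adjusted p = 0.0285). It was lost without replicate 4 or 6 of 20 weeks or replicate 1, 4, 5 or 6 of 26 weeks (adjusted p up to 0.0712) and when only the 2 ages were fitted (0.0566). Cd300ld, the activating CLM-5 gene, ran from 26.2 to 129 CPM (median 48.3) at 26 weeks and 53.9 to 200 CPM (median 131) at 20 weeks, with overlap (-1.20 ± 0.36, adjusted p = 0.0277). Its call was lost without replicate 2 or 4 of 20 weeks or replicate 1, 2, 5 or 6 of 26 weeks (adjusted p up to 0.0718) and when only the 2 ages were fitted (0.0587). Cd244 ran from 28.8 to 160 CPM (median 44.3) at 26 weeks and 130 to 269 CPM (median 201) at 20 weeks, with 1 library of 26 weeks inside the younger range (-1.53 ± 0.49, adjusted p = 0.0366), a call lost without replicate 2, 4, 5 or 6 of 20 weeks or replicate 1, 4, 5 or 6 of 26 weeks (adjusted p up to 0.0841). Pilra ran from 748 to 1263 CPM (median 944) at 26 weeks and 1177 to 1413 CPM (median 1266) at 20 weeks, the smallest of the called differences (-0.39 ± 0.13, adjusted p = 0.0391). It was lost with upper-quartile scaling, limma-voom, no filter or only the 2 ages fitted (adjusted p up to 0.108). It was also lost without replicate 3 of 14 weeks, replicate 2, 3, 4 or 6 of 20 weeks or replicate 1, 4, 5 or 6 of 26 weeks (adjusted p up to 0.0938).

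Trem3 went the other way. It ran from 531 to 1207 CPM (median 919) at 26 weeks, against 295 to 609 CPM (median 381) at 20 weeks, with 5 of 6 older libraries above all younger ones (1.06 ± 0.21, adjusted p = 0.00194). With a curve for gene length the log2 fold change was 0.70 (adjusted p = 0.00884). Trem1, its neighbour on chromosome 17, had medians of 308 CPM at 26 weeks and 354 CPM at 20 weeks and was not called (-0.16 ± 0.20, adjusted p = 0.654). Pilrb1 was not called either, at medians of 108 CPM at 26 weeks and 107 CPM at 20 weeks (-0.13 ± 0.13, adjusted p = 0.588).

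**Figure D3:**
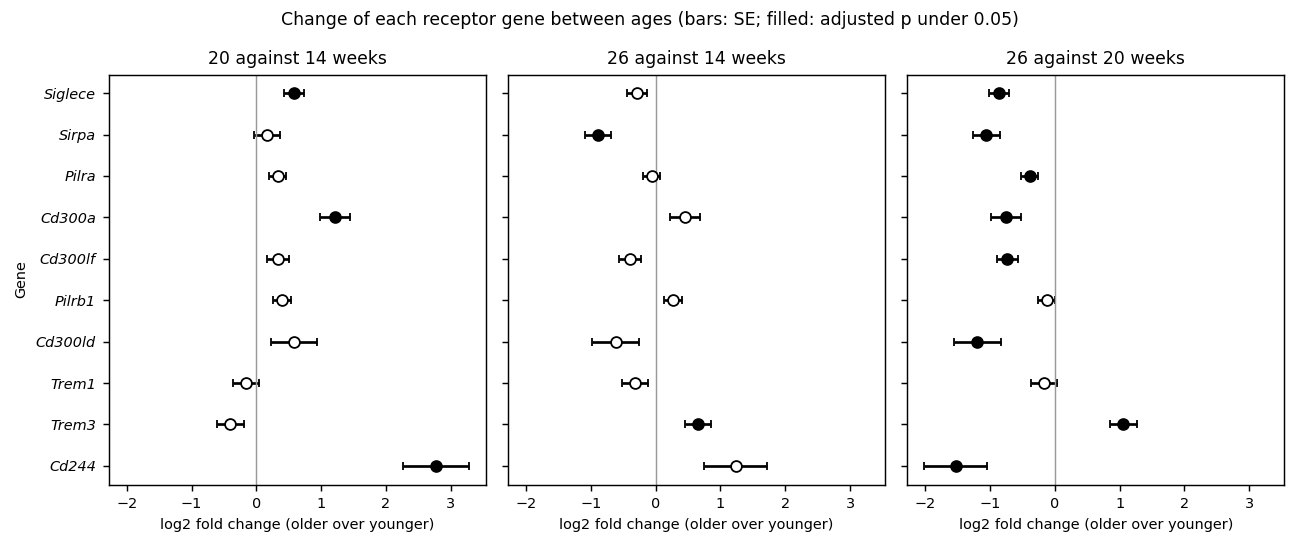
Fitted log2 fold change of the older over the younger age for each receptor gene, with SE bars, in the 3 pairs of ages. Filled points were called: 3 higher at 20 against 14 weeks, 1 higher and 1 lower at 26 against 14 weeks, and 1 higher and 7 lower at 26 against 20 weeks.

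Library composition and other markers moved with age as well. Per library, the top 10 genes by count held 21.2% to 34.8% of all counts at 26 weeks and 9.76% to 17.7% at 20 weeks. Among the 26-week libraries, Trem3 was lowest in replicates 4 and 3 (531 and 628 CPM), which also had the smallest shares of the top 10 genes (25.6% and 21.2%), and Sirpa was highest in the same replicates (779 and 717 CPM). In the other 4 libraries of that age the share was 29.2% to 34.8%, Trem3 904 to 1207 CPM and Sirpa 344 to 456 CPM. Of 14 neutrophil markers 8 were higher and 1 lower at 26 than at 20 weeks, and Ly6g, part of the sorting gate, was higher by 2.56 ± 0.31. Of 5 tested monocyte markers 3 were lower (Csf1r, Adgre1 and Cd68) and Ly6c2 was higher. The sum over 12 monocyte genes ran from 808 to 1771 CPM at 26 weeks and 856 to 1355 CPM at 20 weeks, with C1qa and C1qb among those at 0 in all libraries of 26 weeks and Mertk at 0 in all libraries of 20 weeks. Ly6c2, a gene of the Ly6C used in the sorting gate, averaged 863 CPM of this sum at 26 weeks and 169 CPM at 20 weeks. Csf1r, Adgre1 and Cd68 averaged 130, 42.3 and 170 CPM at 26 weeks and 471, 143 and 271.5 CPM at 20 weeks. Mpeg1, which was not called, averaged 95.55 CPM at 26 weeks and 59.2 CPM at 20 weeks. B cell markers summed to 85.9 to 296 CPM at 26 weeks and 244 to 1873 CPM at 20 weeks, and Ighm was called lower (-2.63 ± 0.52). Plasma cell markers summed to 184 to 689 CPM at 26 weeks and 350 to 2075 CPM at 20 weeks, with 2 of 3 called lower, Jchain (-4.025 ± 1.142) and Xbp1 (-0.54 ± 0.15). Dendritic cell markers summed to 2.93 to 35.4 CPM at 26 weeks and 35.4 to 176 CPM at 20 weeks, with 0 of 4 called by edgeR and 1 lower at an unadjusted p under 0.05, by DESeq2 and by limma-voom. Eosinophil markers summed to 17.3 to 42.4 CPM at 26 weeks and 37.1 to 78.5 CPM at 20 weeks, while 1 of 3, Ear2, was called higher (2.24 ± 0.57). T cell markers summed to 100 to 382 CPM at 26 weeks and 50 to 102 CPM at 20 weeks, and Cd3d, 1 of 4, was called higher (adjusted p = 0.00159). Cd3d alone averaged 200 CPM of this sum at 26 weeks and 70.4 CPM at 20 weeks. These markers too were named after their values were seen. The part of composition and of these markers in the changes of the receptor genes was not tested.

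At 26 weeks, against 14 weeks, Sirpa fell and Trem3 rose, and the other 8 genes were not called. No gene of the 10 had ranges without overlap, which held for 6.76% of all tested genes. The 2 called genes of 10 stand beside 11.0% of all tested genes called, 5.45% higher and 5.54% lower. Sirpa ran from 344 to 779 CPM (median 447) at 26 weeks and 695 to 1162 CPM (median 996) at 14 weeks (-0.89 ± 0.20, adjusted p = 0.00828), with 4 of 6 older libraries below all younger ones, and its call was kept in all alternatives and all fits without 1 library. Trem3 ran from 531 to 1207 CPM (median 919) at 26 weeks and 525 to 617 CPM (median 557) at 14 weeks, with 5 of 6 older libraries above all younger ones (0.65 ± 0.21, adjusted p = 0.047). The Trem3 call was lost without any 1 of the 6 libraries of 14 weeks, replicate 4 or 6 of 20 weeks, or replicate 1, 2, 5 or 6 of 26 weeks (adjusted p up to 0.122). It was also lost without a filter on low counts, and with a curve for gene length its log2 fold change was 0.03 (adjusted p = 0.954). Trem3 has the shortest exon length of the set, 994 bases. Over the same interval 6 of the 14 neutrophil markers were called higher, among them S100a8 (2.38 ± 0.40) and Camp (1.86 ± 0.38), and 4 lower, among them Itgam (-0.89 ± 0.19). All 3 tested plasma cell markers were called higher by edgeR, Xbp1 by 0.52 ± 0.15, and 1 of the 3 by limma-voom. Jchain averaged 22.55 CPM at 26 weeks and 0.1955 CPM at 14 weeks, Igkc 129 and 2.8 CPM and Xbp1 220 and 154 CPM. Neutrophil markers summed to 166300 to 333700 CPM at 26 weeks and 151300 to 216900 CPM at 14 weeks, and plasma cell markers to 184 to 689 CPM at 26 weeks and 128 to 186 CPM at 14 weeks. Of the tested monocyte, dendritic cell, T cell, B cell, eosinophil and basophil markers, edgeR called 0. At an unadjusted p under 0.05 it gave 1 monocyte, 1 dendritic cell and 1 T cell marker higher, DESeq2 called 1 monocyte and 1 dendritic cell marker higher, and limma-voom called 1 of each of these 2 lists higher and 1 basophil marker lower. The part of these markers in the changes of Sirpa and Trem3 was not tested.

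Differences between the oldest and youngest libraries that missed the threshold went in both directions. Cd244 had medians of 44.3 CPM at 26 weeks and 27.9 CPM at 14 weeks (1.24 ± 0.49, adjusted p = 0.113), and was called by DESeq2, limma-voom and with the stricter filter (lowest adjusted p = 0.032). Cd300a had medians of 491 CPM at 26 weeks and 422 CPM at 14 weeks (0.45 ± 0.23, adjusted p = 0.247). Pilrb1 had medians of 108 CPM at 26 weeks and 84.6 CPM at 14 weeks (0.27 ± 0.13, adjusted p = 0.237). Siglece (-0.28 ± 0.16), Cd300lf (-0.40 ± 0.16) and Trem1 (-0.32 ± 0.20) had negative estimates with adjusted p of 0.293, 0.138 and 0.385. Siglece was called lower with the gene length curve (-0.69, adjusted p = 0.0378) and Cd300lf with limma-voom (adjusted p = 0.0389). Pilra was at -0.06 ± 0.13. Cd300ld (-0.62 ± 0.36, adjusted p = 0.326) was called without replicate 3 of 26 weeks (-1.03, adjusted p = 0.0397), a library at 129 CPM where the other 5 were at 26.2 to 55 CPM.

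Ratios of counts within a library compare genes of one family without any scaling between libraries. Pilrb1 over Pilra was 0.0847 ± 0.00624 at 14 weeks, 0.0886 ± 0.0146 at 20 weeks and 0.108 ± 0.0182 at 26 weeks (SD, n = 6 each). Its range at 26 weeks, 0.0856 to 0.135, overlapped those of 14 weeks (0.076 to 0.0938) and 20 weeks (0.072 to 0.115). Cd300ld over Cd300lf was 0.122 ± 0.0306, 0.151 ± 0.0606 and 0.102 ± 0.0508 at 14, 20 and 26 weeks, with overlap between all ages. Cd300ld over Cd300a was 0.209 ± 0.0595 at 14 weeks, 0.134 ± 0.0432 at 20 weeks and 0.0987 ± 0.0425 at 26 weeks, and at 26 weeks no library exceeded 0.146, below the lowest 14-week library at 0.158. All other pairs of ages overlapped in every ratio. For the CPM of single genes, ranges without overlap between 26 and 14 weeks held for 6.76% of all tested genes. Trem3 over Trem1 was 1.54 ± 0.28 at 14 weeks, 1.34 ± 0.49 at 20 weeks and 3.33 ± 1.75 at 26 weeks, where single libraries ran from 1.43 to 5.99. A difference between libraries that depends on gene length does not cancel in a ratio of genes of unlike length. Exon lengths are 994 bases for Trem3 and 2996 for Trem1, and 1957 for Pilrb1 and 3090 for Pilra. With the gene length curve, the log2 fold change of Trem3 at 26 against 14 weeks was 0.03, against 0.65 without it. No test was made of these ratios.

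**Figure D4:**
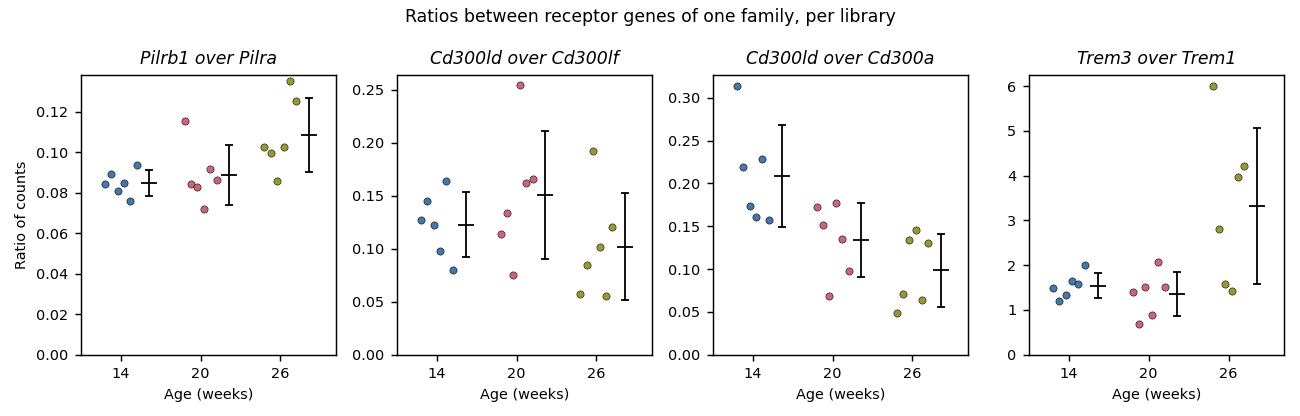
Ratio of counts between 2 receptor genes of one family in every library at 14, 20 and 26 weeks, with mean and SD of 6 libraries. The Trem3 over Trem1 ratio spreads from 1.43 to 5.99 at 26 weeks, and the Cd300ld over Cd300a ratio at 26 weeks (up to 0.146) lies below that at 14 weeks (from 0.158). All other pairs of ages overlap in every ratio.

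Other genes of the same receptor families shared the high point at 20 weeks in part. Of 14 tested, 5 were called higher and 1 lower at 20 than at 14 weeks, beside 4.93% and 5.27% of all tested genes, with a median log2 change of 0.44. The SIRP beta genes, whose products are activating relatives of SIRP alpha, were 3 of the 5. Sirpb1c averaged 240 ± 88.8 CPM at 20 weeks and 56.9 ± 33.2 CPM at 14 weeks (2.08 ± 0.39, adjusted p = 0.00223) and Sirpb1a 61.7 ± 20.9 CPM at 20 weeks and 17.6 ± 9.23 CPM at 14 weeks (1.81 ± 0.38, adjusted p = 0.00479). Sirpb1b changed by 1.48 ± 0.32. These genes share sequence, 32.1% of the 100-base windows of Sirpb1c and 23% of those of Sirpb1a occurring in other genes. Their counts are uncertain over these shares and may not be independent. Treml4, of the TREM family, averaged 39.8 ± 3.43 CPM at 20 weeks and 6.03 ± 2.74 CPM at 14 weeks (2.72 ± 0.52, adjusted p = 0.00243). The fifth was Cd22, a B cell Siglec (2.90 ± 0.81, adjusted p = 0.027), a call lost without replicate 3, 4, 5 or 6 of 14 weeks or replicate 2 of 20 weeks (adjusted p up to 0.0668) and when only these 2 ages were fitted. The SLAM family gene Cd84 fell (-0.73 ± 0.17, adjusted p = 0.00738). Sirpb1b and Cd22 were named after their values were seen.

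At 26 against 20 weeks 5 of the 14 family genes fell and 0 rose, beside 7.98% and 8.03% of all tested genes (1 rose by DESeq2, and 1 at an unadjusted edgeR p under 0.05). Cd300lb, an activating CD300 receptor of mice, averaged 534 ± 205 CPM at 26 weeks and 1383 ± 319 CPM at 20 weeks (-1.37 ± 0.22, adjusted p = 0.000487), a call kept in all alternatives. Cd33, of the Siglec family, changed by -0.70 ± 0.15 (adjusted p = 0.00299), and Sirpb1a, Sirpb1b and Sirpb1c by -1.31 ± 0.38, -1.07 ± 0.32 and -1.15 ± 0.38. The Sirpb1a call was lost without replicate 6 of 20 weeks or replicate 5 or 6 of 26 weeks (adjusted p up to 0.0517), and the Sirpb1b call without replicate 4 or 6 of 20 weeks or replicate 1 or 6 of 26 weeks (0.0691). The Sirpb1c call was lost without replicate 3 of 14 weeks, replicate 3, 4, 5 or 6 of 20 weeks or replicate 1, 2, 4, 5 or 6 of 26 weeks (0.0984), with the replicate block and with the gene length curve. At 26 against 14 weeks Treml4 was higher (2.41 ± 0.51) and Cd300lb (-0.90 ± 0.22) and Cd84 (-0.93 ± 0.17) lower.

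Of 17 tested genes of other paired or inhibitory receptors and checkpoint molecules, 2 rose and 2 fell at 20 against 14 weeks, beside 4.93% and 5.27% of all tested genes. Lair1, an inhibitory receptor for collagen, averaged 42.6 ± 20.7 CPM at 20 weeks and 5.11 ± 3.61 CPM at 14 weeks (3.06 ± 0.63, adjusted p = 0.00427). The checkpoint ligand gene Cd274 rose as well (3.26 ± 0.51). Ceacam1, whose product carries inhibitory motifs, averaged 263 ± 93.6 CPM at 20 weeks and 683 ± 71.2 CPM at 14 weeks (-1.38 ± 0.21, adjusted p = 0.000613), and the inhibitory lectin gene Clec12a changed by -0.65 ± 0.17, a call lost without replicate 6 of 14 weeks or replicate 4 or 6 of 20 weeks (adjusted p up to 0.0552) and with the GC curve. At 26 against 20 weeks 3 of the 17 rose and 3 fell, beside 8.03% and 7.98% of all tested genes, with Clec12a (1.05 ± 0.18) among the first and Lilra6 (-0.75 ± 0.18) and Cd274 (-1.90 ± 0.48) among the second. At 26 against 14 weeks 1 rose, Lair1 (2.76 ± 0.63), and 4 fell, beside 5.45% and 5.54% of all tested genes. Pirb, the inhibitory member of the mouse PIR pair (-0.71 ± 0.17, adjusted p = 0.0116), and Pira2, an activating member (-1.36 ± 0.34, adjusted p = 0.0134), were both among the 4. Pira2 was named after its value was seen, and it is among the genes that share windows with Pirb. Lilra6 and Pirb share 11.9% and 20.8% of their windows with other genes.

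**Figure D5:**
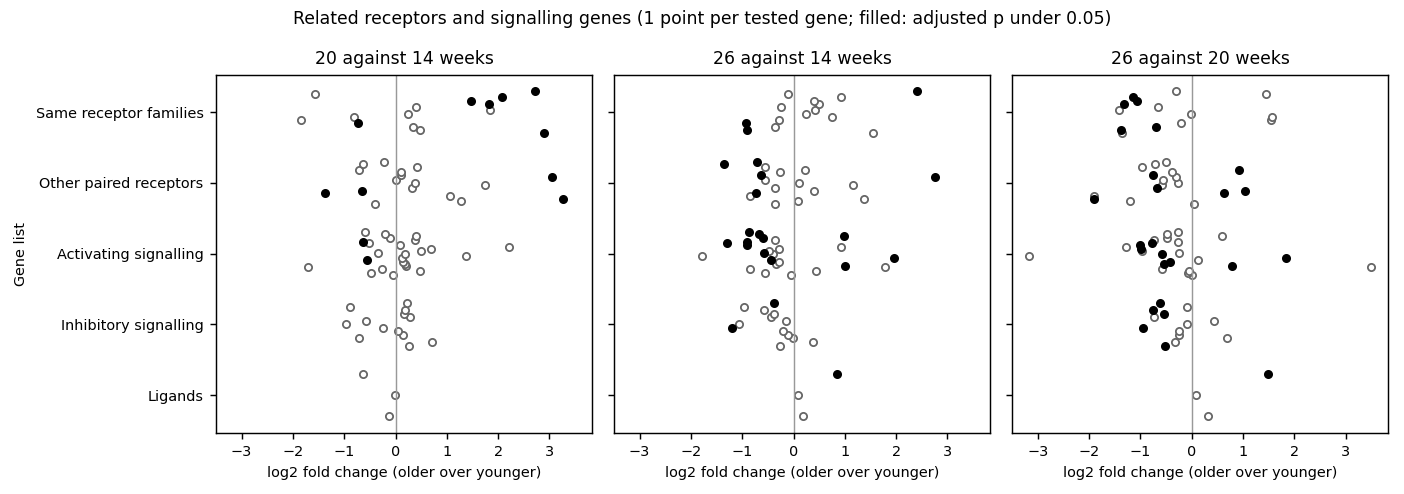
Fitted log2 fold change of the older over the younger age for each tested gene of 5 related lists (14 genes of the same families, 17 of other paired receptors, 24 of activating signalling, 13 of inhibitory signalling and 3 ligands). Filled points were called, among them 5 family genes to the right at 20 against 14 weeks and 5 to the left at 26 against 20 weeks.

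Among 24 tested adaptors and kinases of activating receptors, 3 rose and 8 fell at 26 against 14 weeks, beside 5.45% and 5.54% of all tested genes. The median log2 change of the 24 was -0.42. The 3 that rose were Tyrobp, Hcst and Fcer1g, while Lat2, another transmembrane adaptor, was not called (-1.78 ± 1.23, adjusted p = 0.432). Lat2 was named after its value was seen. Tyrobp, through which TREM-1, TREM-3 and PILR beta signal, averaged 1523 ± 620 CPM at 26 weeks and 769 ± 211 CPM at 14 weeks (0.99 ± 0.23, adjusted p = 0.0107). Hcst averaged 57.5 ± 43.3 CPM at 26 weeks and 14.7 ± 1.69 CPM at 14 weeks (1.97 ± 0.41, adjusted p = 0.00542), and Fcer1g, named after its value was seen, 1935 ± 866 CPM at 26 weeks and 966 ± 133 CPM at 14 weeks (1.00 ± 0.23, adjusted p = 0.00872). These are short genes, of 667, 722 and 874 exon bases, and with a curve for gene length the changes were 0.30 (adjusted p = 0.247), 1.17 (0.0316) and 0.32 (0.131). Those that fell included the signalling enzymes Plcg2 (-0.91 ± 0.17, adjusted p = 0.00329), Pik3cd (-0.91 ± 0.20, adjusted p = 0.0066) and Pik3cg (-1.30 ± 0.22, adjusted p = 0.00155), each kept in all alternatives. At 20 against 14 weeks 0 of the 24 rose and 2 fell, beside 4.93% and 5.27% of all tested genes (1 rose by DESeq2, 1 by limma-voom and 1 at an unadjusted edgeR p under 0.05). At 26 against 20 weeks 2 rose and 6 fell, beside 8.03% and 7.98% of all tested genes, Hcst with 1.85 ± 0.41 and Pik3cd with -1.0 ± 0.20. Adaptors of the SLAM family were nearly absent: Sh2d1a had 0, 0 and 2 counts and Sh2d1b1 1, 1 and 2 counts over the 6 libraries of 14, 20 and 26 weeks.

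On the inhibitory side, 13 phosphatases, kinases and partners were tested and edgeR called 0 at 20 against 14 weeks, where 2 were lower at an unadjusted p under 0.05, DESeq2 called 0 and limma-voom 1. At 26 against 20 weeks 5 fell and 0 rose, beside 7.98% and 8.03% of all tested genes (6 and 0 by DESeq2 and by limma-voom, and 6 and 1 at an unadjusted edgeR p under 0.05). Inpp5d, the SHIP-1 gene, averaged 99.1 ± 27.8 CPM at 26 weeks and 192 ± 44.1 CPM at 20 weeks (-0.96 ± 0.20, adjusted p = 0.00289), and against 228 ± 40.2 CPM at 14 weeks it also fell (-1.20 ± 0.20, adjusted p = 0.00162). Ptpn6, the SHP-1 gene, averaged 779 ± 220 CPM at 26 weeks and 1139 ± 243 CPM at 20 weeks (-0.55 ± 0.17, adjusted p = 0.0351), a call lost without replicate 1, 4 or 6 of 20 weeks or replicate 1, 5 or 6 of 26 weeks (adjusted p up to 0.0866) and without a filter, with only the 2 ages, with the replicate block and with the GC curve. Ptpn11, the SHP-2 gene, was at 10.7 to 16 CPM in the means of the 3 ages and was not called. Skap2 (-0.61 ± 0.12), Csk (-0.52 ± 0.13) and Ptprc, the CD45 gene (-0.75 ± 0.19), fell at 26 against 20 weeks too, Csk except with the GC curve.

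Of 6 listed ligands 3 were tested, and Npdc1, Cd99 and Cd200 were not among the symbols of the count table. Pglyrp1, a peptidoglycan recognition protein of neutrophil granules that binds TREM-1, averaged 3970 ± 1789 CPM at 26 weeks and 1405 ± 291 CPM at 20 weeks (1.5 ± 0.24, adjusted p = 0.000504). Against 2194 ± 247 CPM at 14 weeks it was also higher at 26 weeks (0.86 ± 0.24, adjusted p = 0.0243), a call lost with the gene length curve (0.35, adjusted p = 0.319) and without replicate 3, 4 or 5 of 14 weeks or replicate 1 or 5 of 26 weeks (adjusted p up to 0.0699). Cd47, the ligand of SIRP alpha, averaged 582, 535 and 663 CPM at 14, 20 and 26 weeks and was not called by edgeR between any ages. Its lowest edgeR adjusted p was 0.0702, at 26 against 20 weeks (0.31 ± 0.11), where it was called higher by DESeq2, with the stricter filter and with the gene length curve. Cd48, the ligand of 2B4, was at 14.3, 14.3 and 15.2 CPM at 14, 20 and 26 weeks and was not called by edgeR, DESeq2 or limma-voom.

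The genes followed each other across the 18 libraries to different degrees, given here as a description, since libraries share depth and composition. With every value centred on the mean of its age, Pearson's r was 0.91 between Pilra and Cd300a, 0.83 between Sirpa and Siglece and 0.79 between Cd300a and Cd244. Trem3 ran against Sirpa (-0.69) and Siglece (-0.59). Trem1 went with Cd300lf (0.78) and Cd300ld (0.77). Among 4226 abundant genes, the one most like Cd244 over the 18 libraries was Sirpb1c (r = 0.969, 0.912 when centred on age means). That most like Sirpa was Pxn (0.957), with the CD300 gene Cd300lb (0.955) next. Siglece was most like Zyx (0.973) and C5ar1 (0.956), and Cd300a most like the lysosomal enzyme genes Ppt1 (0.966) and Ctsa (0.961). Trem3 was most like Myl6 (0.967) and Prdx5 (0.965), Trem1 most like Ube2q1 (0.877) and Cd300lf most like Slfn2 (0.915). Pilra was most like Il1rn (0.936), Pilrb1 most like Prickle3 (0.877) and Cd300ld most like Pfkfb4 (0.911).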

How the data were processed

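RNA of sorted splenic neutrophils of NZBWF1/J mice was sequenced in 18 libraries made with Nextera XT and read from a single end at 100 nt, per the labels' protocols. The authors deposited 1 table of raw counts, by gene symbol and library. The submitters' processing notes list Trimmomatic (0.32), STAR (2.4.2a), HTSeq (0.6.1), DESeq2 (1.12.3), DESeq and the build GRCm38.p4, without their roles. Ages and replicate numbers come from the titles, and the labels name no batch.

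All genes were fitted with edgeR 4.0.16 (R 4.3.3): 1 robust quasi-likelihood fit of the 18 libraries with TMM scaling, genes kept by filterByExpr with age as group, and Benjamini-Hochberg adjustment over 10104 genes. The SE is the log2 fold change over the square root of F. In counts simulated for 20 against 14 weeks over 10104 genes, 72.7% of 66 genes changed 4-fold, 34.3% of 67 changed 2-fold and 10.4% of 67 changed 1.5-fold were recovered, with 3 false calls. Exon lengths come from GENCODE M21, which matched 16820 symbols directly and 454 through RefSeq synonyms. Log2 CPM for correlations used a prior count of 2. Same-age libraries differed by more than counting error (mean chi-square per gene 27.2 to 206).

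The receptor genes, the related lists and the tests were chosen with earlier results of these data known. Named beside the 10 genes are up to 6 called genes of each list by smallest adjusted p, 8 ligands, adaptors and phosphatases whatever their result, and the 2 genes most like each. Alternatives were RLE and upper-quartile scaling, DESeq2 1.42.0, limma-voom (limma 3.58.1) with quality weights, no filter, at least 10 CPM in 6 libraries, a fit of just the 2 ages in question, a block for replicate number, loess curves for gene length or GC content, and each library left out in turn.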

Additional observations from a re-analysis of the deposited data

Results flagged for a closer look

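In 3 of the 30 groups of 6 libraries (10 genes at 3 ages) 1 library stood far from the others by Dixon's ratio of gap to range, where chance gives about 1 in 20. Cd300ld was at 129 CPM in replicate 3 of 26 weeks, the nearest other library being at 55 CPM, and that library also had the most counts of the series. Pilrb1 was at 76.5 CPM in replicate 4 of 26 weeks, below the next library at 103 CPM. At 14 weeks, Pilrb1 was at 97.5 CPM in replicate 2, above the next library at 86.4 CPM.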

How the results depend on the processing

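Of the 10 receptor genes, 3, 2 and 8 were called for 20 against 14, 26 against 14 and 26 against 20 weeks. For 20 against 14 weeks DESeq2 and the stricter filter called 5 each. For 26 against 14 weeks limma-voom called 4 and the fit without a filter 1. For 26 against 20 weeks the fit of only those 2 ages called 5. Without 1 library the numbers ran from 2 to 4, from 1 to 3 and from 4 to 8. No log2 fold change of a receptor gene that was called in either fit changed its sign, while the uncalled estimate of Pilrb1 for 26 against 14 weeks was -0.16 with the gene length curve and 0.27 without it, and that of Pilra ran from -0.25 to 0.05 over the 10 alternatives. Over all genes, 1030, 1111 and 1617 were called. DESeq2 called 1563 for the first comparison, and limma-voom 2633 and the fit of 2 ages only 1693 for the second. Without 1 library the ranges were 702 to 1265, 667 to 1546 (667 without replicate 1 and 739 without replicate 2 of 26 weeks) and 1158 to 1888. The share of calls that were higher for 26 against 14 weeks was 49.6% (551 higher, 560 lower), 62% with upper-quartile scaling (699 and 429), which moved the median of all genes to 0.14, 59.6% with the stricter filter and 32.1% with the gene length curve (264 and 558). The cause of these moves was not tested. Libraries of different ages shared a replicate number only: of 18 same-numbered pairs 1 had a correlation of deviations over 0.1 (range -0.05 to 0.14), and 6 of 18 libraries correlated best with their own number. With the replicate number as a block the receptor genes called were 3, 2 and 8 and all genes called 962, 946 and 1573. In the simulation 34.3% of 2-fold and 72.7% of 4-fold changes were recovered, so a gene that was not called may still differ. The simulation changed fewer genes than the 1030 called in the data, and the adjustment of p depends on that number.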
